A study of Mus musculus with 16 samples.

Results

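Mitochondria in SNc dopaminergic neurons form a network that is joined by fusion, cut by fission and carried along a very long, branched axon. The genes described here are the 10 core genes of that machinery: Opa1, Mfn1 and Mfn2 for fusion, Dnm1l, Fis1 and Mff for fission, and Rhot1, Rhot2, Trak1 and Trak2 for axonal transport. They were chosen by name from the 25006 genes listed for each mouse, with earlier results of these data known, and each name matched a single Ensembl identifier. All 10 passed the filter on low counts that left 12390 genes for testing, with at least 161 raw counts in every mouse. Each of the 10 genes was read out of the comparison of MCU-KO with control mice, which asks what the loss of the mitochondrial Ca2+ uniporter does to gene expression in these neurons.

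Outer mitochondrial membranes fuse through the mitofusins, GTPases encoded by Mfn1 and Mfn2, and inner membranes fuse through the GTPase encoded by Opa1. Fission is driven by the cytosolic GTPase DRP1, encoded by Dnm1l, which assembles on the outer membrane where receptors such as the products of Mff and Fis1 are anchored. In axons and dendrites, the Miro GTPases encoded by Rhot1 and Rhot2 sit on the outer membrane and bind Ca2+ through EF hands, and the adaptors encoded by Trak1 and Trak2 link them to kinesin and dynein motors.

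RNA was collected from the SNc of 16 mice at postnatal day 45, with a library for each mouse. The 8 MCU-KO animals were DAT-Cre+/- MCU fl/fl, and the 8 control animals were DAT-Cre+/- without the floxed gene. Every mouse carried 1 DAT-Cre allele and had received, 30 days earlier, an AAV with a Cre-dependent tagged ribosomal protein (RiboTag), so the mRNA was precipitated with ribosomes of neurons that use the dopamine transporter promoter. The controls were bred from DAT-Cre and C57/BL6 mice, so the genotypes also differed in their cross. For its own sequencing results the study counted more MCU-KO mice than the 8 compared here. Totals lay between 14129527 and 22016362 counts per mouse, and 3 counts corresponded to 0.136 CPM (counts relative to the total of the library) in the deepest and 0.212 CPM in the shallowest library, limits that cover counting error only.

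The deleted gene, Mcu, had between 120.3 and 828 normalized counts in control mice (median 401) and between 5.82 and 410.1 in MCU-KO mice (median 246). Here and below, a normalized count is the deposited count over the size factor that DESeq2 gave the library. Of the 8 MCU-KO mice, 5 lay within the control range of Mcu, and the log2 fold change was −1.19 (SE 0.59, 95% interval −2.41 to 0.038). In edgeR its unadjusted p was 0.0569 and its adjusted p 1.00 (quasi-likelihood test, Benjamini-Hochberg adjustment over all genes tested). SE is the standard error, and the interval is the confidence interval of the fit. In DESeq2 the unadjusted p of Mcu was 0.0369 (Wald test) and the adjusted p 0.909. These counts cover the whole gene, and the exons lost on recombination were not given in the sources used here. The study verified the deletion with a PCR assay of Mcu in RiboTag mRNA and by weaker Ca2+ uptake into mitochondria. Dopaminergic markers were abundant, with summed levels of 9 genes between 13389 and 17457 CPM in control and between 11576 and 19815 CPM in MCU-KO mice, and none of them was at 0 in any mouse. RNA of other cells was present as well. The 6 oligodendrocyte markers summed to between 2842 and 5474 CPM in control and between 3330.0 and 6532 CPM in MCU-KO mice, and the 6 astrocyte markers to between 323 and 656 and between 453 and 900.1 CPM. The summed GABAergic markers (4 genes) lay between 181 and 366 CPM in control mice and between 183 and 342 CPM in MCU-KO mice, and microglial (6), glutamatergic (2) and endothelial (3) markers were at most 137, 103 and 35.1 CPM in any mouse. None of the 7 marker sums passed the threshold between genotypes, with a smallest p of 0.0738 for the endothelial markers (exact permutation test, two-sided, 0.470 after Benjamini-Hochberg adjustment over the 7 sums). The 10 genes are used by all of these cell types, and the part of each cell type in their counts was not tested. In such libraries, fewer neurons and less mRNA per neuron cannot be told apart.

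After adjustment, edgeR called 0 of the 10 genes between MCU-KO and control, at a threshold of 0.05. Of all 12390 genes tested it called 0.178%, with 0.0888% higher and 0.0888% lower in MCU-KO. DESeq2, with 0.404% of genes called, and limma-voom, with 0.234%, also called 0 of the 10. At an unadjusted p under 0.05, edgeR, DESeq2 and limma-voom each gave 1 of the 10, Trak2, which was higher in MCU-KO, beside 4.41% of all genes in edgeR, 5.21% in DESeq2 and 7.29% in limma-voom. The fitted fold change was below 0 for 4 of the 10 genes and for 49.6% of all genes, and the medians of the log2 fold changes were 0.0037 over the 10 genes and 0.0025 over all genes. The normalized counts of the genotypes overlapped in all 10 genes, and 0.258% of all genes had no overlap.

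**Figure D1:**
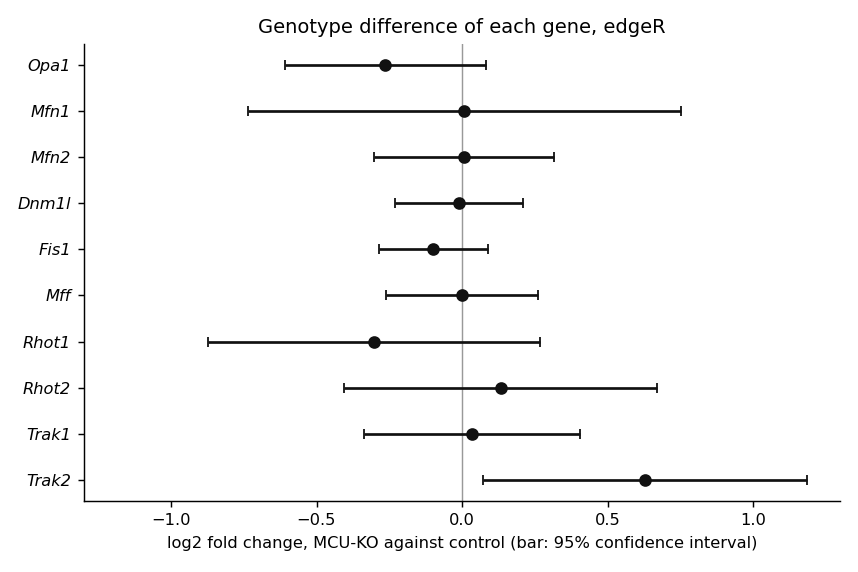
Log2 fold change of each of the 10 genes, MCU-KO against control, as fitted by edgeR (points) with 95% intervals (bars). The interval of Trak2 lies between 0.072 and 1.18, and those of the other 9 genes include 0.

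As a group the 10 genes had narrower intervals than the genes tested, but Mfn1 did not. The median width of their 95% intervals was 0.72 on the log2 scale, beside 1.40 over all genes. For 9 of the 10 genes the interval stayed between −1 and 1 on that scale, as it did for 51.8% of all genes. For 5 of them (Mfn2, Dnm1l, Fis1, Mff and Trak1) it stayed within a 1.5-fold change either way. The share of all genes within that narrower limit was not computed. A comparison of widths or spread with genes of similar counts is not given here. The coefficient of variation over the control mice was 11.1% for Fis1, 13.0% for Dnm1l and 17.3% for Mff, and it reached 57.9% for Mfn1, with a median of 25.0% over the 10 genes and 42.6% over all genes tested. Mfn1 and Rhot1, at 45.2%, lay above that median.

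To compare levels between genes, normalized counts were divided by the length of the union of a gene's annotated exons. Per kb of exon, Fis1 was the most abundant of the 10 genes in control mice, at 5026 ± 558 normalized counts per kb (SD, n = 8), above 98.1% of the genes tested. Dnm1l and Mff followed at 1022 ± 132 and 1009.9 ± 175 per kb (SD, n = 8), and Mfn2 at 701 ± 183 per kb (SD, n = 8). The other 6 genes formed a lower group. Opa1 had 170.2 ± 40.9 normalized counts per kb, Rhot2 162 ± 54.6, Rhot1 146 ± 66.1, Mfn1 115 ± 66.6, Trak1 107 ± 23.9 and Trak2 85.8 ± 30.1 (SD, n = 8 each). Trak2, the lowest, was still above 44.97% of the genes tested. Before division by length, Mff had a higher control mean than Fis1, at 9854 ± 1709 beside 8614 ± 956 normalized counts (SD, n = 8 each).

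Within this order, Fis1 exceeded Dnm1l in 8 of 8 control mice, with a mean log2 ratio of 2.30 ± 0.31 (SD, n = 8). Mff exceeded Mfn2 in 7 of 8 mice, by 0.54 ± 0.38, and Mfn2 exceeded Opa1 in 8 of 8 mice, by 2.04 ± 0.56 (SD, n = 8 each). Dnm1l and Mff did not differ beyond their spread (log2 ratio 0.028 ± 0.35, SD, n = 8), and neither did any pair of neighbours from Opa1 down to Trak2. In MCU-KO mice the first 4 genes kept their order, and the lower 6 were ordered Rhot2, Opa1, Trak2, Rhot1, Mfn1 and Trak1. Per kb of coding sequence in place of exons, Fis1 stayed first and Mff came before Dnm1l and Mfn2, since much of the annotated Mff exon length of 9757 bases is not coding (948 coding bases). The lower 6 changed order as well, to Rhot1, Trak1, Opa1, Rhot2, Mfn1 and Trak2.

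**Figure D2:**
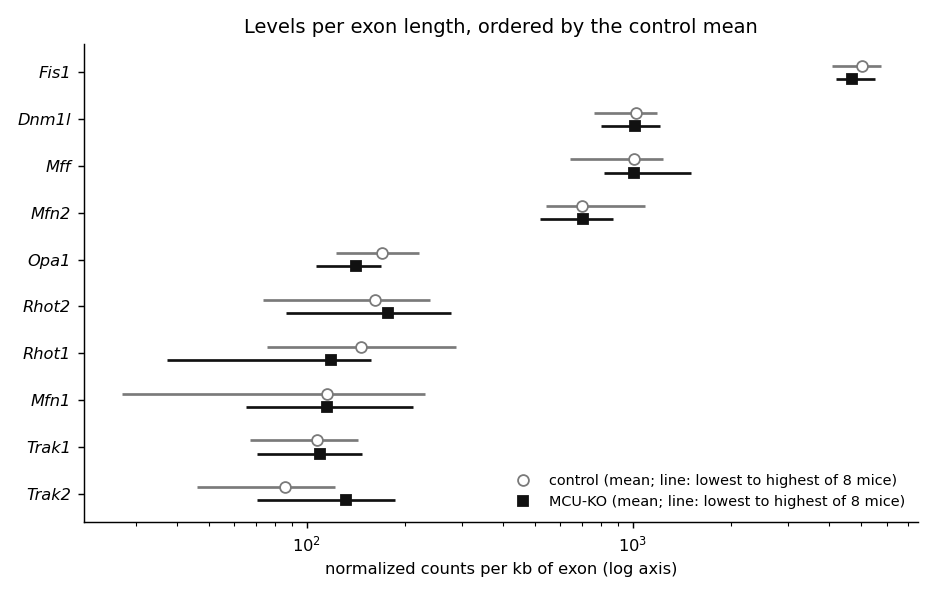
Normalized counts per kb of exon (log axis) of the 10 genes, ordered by the control mean. Points are means and lines run from the lowest to the highest of the 8 mice of a genotype. Fis1, at a control mean of 5026, stands above Dnm1l, Mff and Mfn2, and the other 6 genes lie between 85.8 and 170.2.

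Among the fusion genes, Opa1 (ENSMUSG00000038084, chromosome 16, 29579334 to 29654884 of GRCm38) had from 972 to 1745 normalized counts in control mice, with a median of 1233, and from 843 to 1331 in MCU-KO mice, with a median of 1121. In 3 control mice (3, 4 and 6) it was above every MCU-KO mouse, and in MCU-KO mouse 8 it was below every control mouse. The mean was 1340.1 ± 322 in control and 1116 ± 149 in MCU-KO mice (SD, n = 8 each), and the log2 fold change was −0.26 with an SE of 0.17. The 95% interval from −0.61 to 0.082 included 0.

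Mfn2 (ENSMUSG00000029020, chromosome 4, 147873599 to 147904704) had from 2816 to 5659.6 normalized counts in control mice (median 3235) and from 2706 to 4519.8 in MCU-KO mice (median 3649). One library, control mouse 7, lay above all MCU-KO mice. The means, 3640.1 ± 949 and 3655 ± 699 (SD, n = 8 each), gave a log2 fold change of 0.0066 (SE 0.15, 95% interval −0.30 to 0.32).

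Mfn1 (ENSMUSG00000027668, chromosome 3, 32529465 to 32579239) varied most among the 10 genes. It had from 165 to 1405 normalized counts in control mice (median 657), an 8.49-fold range, and from 397 to 1299 in MCU-KO mice (median 533). All MCU-KO mice lay within the control range. The means were 703 ± 407 and 706 ± 328 (SD, n = 8 each), and the 95% interval of the log2 fold change of 0.0083 (SE 0.36) ran from −0.74 to 0.75, which holds changes of 1.5-fold both ways.

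Of the fission genes, Dnm1l (ENSMUSG00000022789, chromosome 16, 16312230 to 16358959) was one of the least variable. It had from 3953 to 6187 normalized counts in control mice (median 5432) and from 4169 to 6313 in MCU-KO mice (median 5287). The genotypes overlapped almost wholly, with 7 of 8 MCU-KO mice within the control range. The means of 5317 ± 689 and 5274 ± 748 (SD, n = 8 each) gave a log2 fold change of −0.011 (SE 0.11, 95% interval −0.23 to 0.21).

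Fis1 (ENSMUSG00000019054, chromosome 5, 136953275 to 136966234), a small tail-anchored protein of the outer membrane, had from 6995 to 9850.2 normalized counts in control mice (median 8764) and from 7185 to 9490.5 in MCU-KO mice (median 7866). All MCU-KO mice lay within the control range, with 6 of 8 below the control median. The means were 8614 ± 956 and 8046 ± 933 (SD, n = 8 each). The log2 fold change of −0.099 (SE 0.090) had the narrowest interval of the 10 genes, from −0.29 to 0.088.

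Mff (ENSMUSG00000026150, chromosome 1, 82724890 to 82752394), which recruits DRP1 to the outer membrane, had from 6266 to 12065 normalized counts in control mice (median 10041) and from 7969 to 14720.1 in MCU-KO mice (median 9367). MCU-KO mouse 7 stood above all other mice, and control mouse 6 below all others. The means of 9854 ± 1709 and 9857 ± 2090.4 (SD, n = 8 each) were nearly equal, with a log2 fold change of 0.00080 (SE 0.13, 95% interval −0.26 to 0.26).

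**Figure D3:**
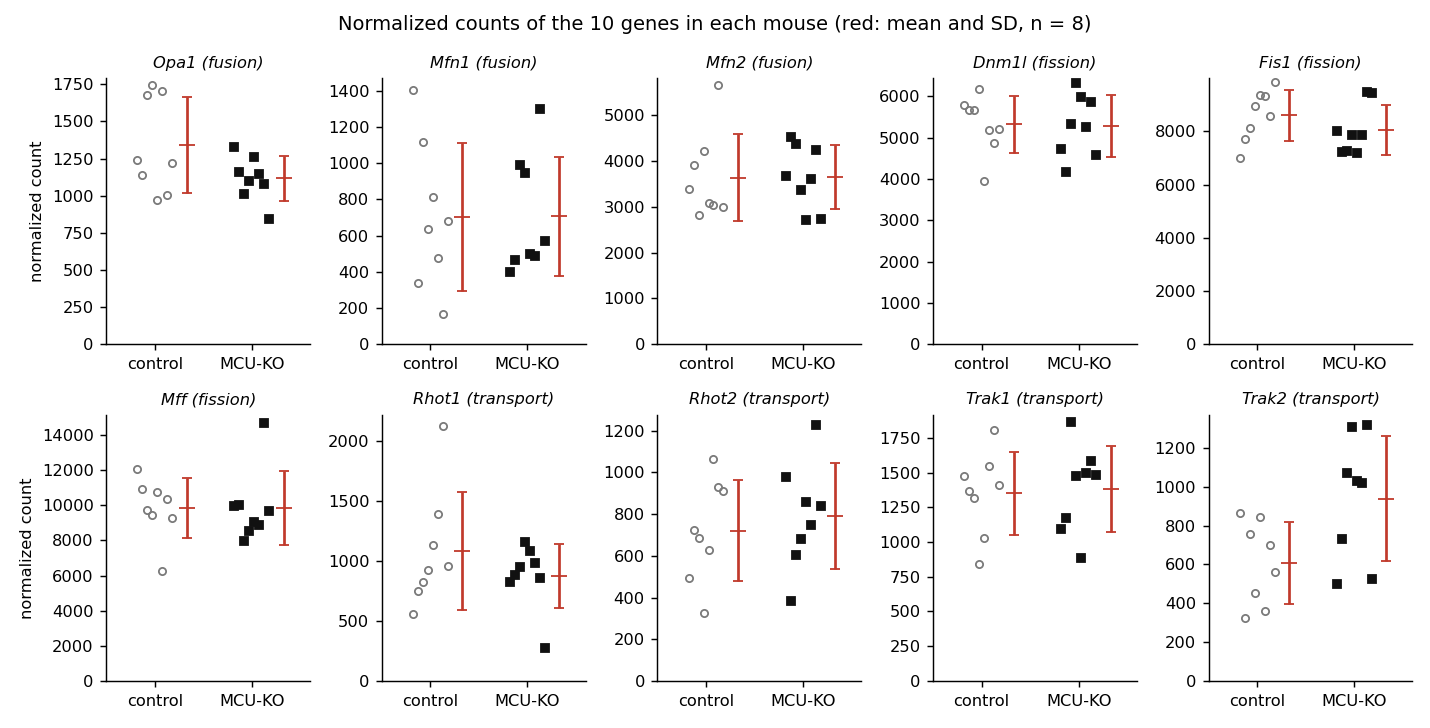
Normalized counts of the 10 genes in each of the 8 control mice (open circles) and 8 MCU-KO mice (filled squares), with the mean and SD in red and every axis starting at 0. The genotypes overlap in every panel, and in the Trak2 panel 5 MCU-KO mice lie above the highest control mouse.

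Among the transport genes, Rhot1 (ENSMUSG00000017686, chromosome 11, 80209019 to 80267907) had from 559 to 2126 normalized counts in control mice (median 943) and from 276 to 1163 in MCU-KO mice (median 917). The lowest value was that of MCU-KO mouse 8, which also had the lowest total count, and control mice 6 and 7 lay above all MCU-KO mice. The mean was 1084 ± 490.2 in control and 878 ± 269 in MCU-KO mice (SD, n = 8 each), with a log2 fold change of −0.30 (SE 0.27, 95% interval −0.87 to 0.27). Without MCU-KO mouse 8 it was −0.17, and without control mouse 7, the highest, −0.087. Leaving out control mouse 1, the lowest of the controls, gave −0.40.

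Rhot2 (ENSMUSG00000025733, chromosome 17, 25838457 to 25844851) had from 327 to 1064 normalized counts in control mice (median 704) and from 383 to 1229.6 in MCU-KO mice (median 793). The genotypes overlapped, with 7 of 8 MCU-KO mice within the control range. The means of 719.5 ± 243 and 789.7 ± 254 (SD, n = 8 each) gave a log2 fold change of 0.13 (SE 0.26, 95% interval −0.41 to 0.67). Its counts are uncertain, because 29.4% of its exon bases also belong to an overlapping protein-coding gene on the same strand, Gm20683, which was not analysed here, and 1.82% to another, Wdr90, which had at most 222 counts in any mouse. Without MCU-KO mouse 7 the log2 fold change was 0.012, without control mouse 4 0.025, and without control mouse 6 0.24.

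Trak1 (ENSMUSG00000032536, chromosome 9, 121297502 to 121474918) had from 839 to 1804 normalized counts in control mice (median 1391) and from 884 to 1863 in MCU-KO mice (median 1479.9). The means of 1349.6 ± 299.9 and 1383 ± 311 (SD, n = 8 each) gave a log2 fold change of 0.035 (SE 0.18, 95% interval −0.34 to 0.41), and 7 of 8 MCU-KO mice lay within the control range.

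Trak2 (ENSMUSG00000026028, chromosome 1, 58900449 to 58973430), the adaptor whose protein is mostly found with dynein in neurons, showed the largest difference of the 10 genes. It had from 327 to 863 normalized counts in control mice (median 631) and from 499.9 to 1319.8 in MCU-KO mice (median 1025). In 5 of 8 MCU-KO mice (3 to 7) it was above every control mouse, and in 3 control mice (2, 4 and 6) it was below every MCU-KO mouse. The means were 608 ± 213 and 938 ± 321 (SD, n = 8 each). The log2 fold change of 0.63 (SE 0.27) had a 95% interval from 0.072 to 1.18, which corresponds to between 1.05-fold and 2.27-fold. In edgeR's quasi-likelihood test its unadjusted p was 0.0287 and its adjusted p 1.00, and by p it ranked 334 among the genes tested. DESeq2 gave an adjusted p of 0.844. The unadjusted p lay above 0.05 without MCU-KO mouse 4 or 7 or control mouse 2 or 6 (0.0637, 0.0650, 0.0549 and 0.0536), with log2 fold changes between 0.54 and 0.55. Without any other single mouse it lay between 0.0120 and 0.0498, with log2 fold changes between 0.58 and 0.72. After adjustment over all genes the difference in Trak2 was not called.

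Mitofusins, Miro proteins and TRAK adaptors each come as a pair of paralogues, and a read can be assigned to 1 gene of a pair only where their sequences differ. The longest stretch of coding sequence that is identical within the Miro pair and within the TRAK pair is shown, since it bears on whether the counts of the paralogues can be told apart. Capitals mark the identical stretch, lower case the neighbouring bases of each transcript, 5′ to 3′ on the strand of the gene (GENCODE M21, GRCm38).
Rhot1, chr11:80233949-80233966, plus strand, exon 8: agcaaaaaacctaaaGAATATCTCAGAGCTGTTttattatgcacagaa
Rhot2, chr17:25842054-25842071, minus strand, exon 8: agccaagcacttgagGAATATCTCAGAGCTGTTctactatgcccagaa
Trak1, chr9:121472404-121472419, plus strand, exon 16: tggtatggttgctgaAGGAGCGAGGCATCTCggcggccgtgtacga
Trak2, chr1:58904000-58904015, minus strand, exon 16: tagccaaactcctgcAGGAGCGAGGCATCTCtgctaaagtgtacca
These runs were 18 bases long between Rhot1 and Rhot2 and 16 between Trak1 and Trak2. No stretch of 50 bases in any annotated transcript of Mfn2, Rhot1 or Trak2 occurred in a transcript of another gene, so a read of that length separates the paralogues. With transcripts of other genes, 25.6% of such stretches were shared in Rhot2, 4.90% in Dnm1l, 1.45% in Mff, 0.885% in Mfn1 and 0.0393% in Trak1, and 0 in Opa1 and Fis1. The shared stretches of Rhot2 were mainly those of the overlapping gene Gm20683 (24.8%). In Dnm1l, 2.73% of stretches were shared with Gm49521, which overlaps 243 of its exon bases on the opposite strand, and in Mff all shared stretches were those of C430014B12Rik, with 195 overlapping bases on the opposite strand. Whether the counting used the strand of the reads was not given in the sources used here.

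Mfn2 was the main mitofusin transcript in these libraries. The log2 ratio of Mfn2 to Mfn1, in counts per kb of exon plus a pseudocount of 1 count, was above 0 in 8 of 8 control mice, from 1.503 in mouse 1 to 5.32 in mouse 7. Its mean was 2.82 ± 1.26 (SD, n = 8), which corresponds to 7.08-fold, with p = 0.0078 (exact sign-flip permutation test over 256 sign patterns, two-sided). No smaller p is possible with 8 mice, and it was 0.0234 after Benjamini-Hochberg adjustment over the 3 pairs. The mean in control mice was 2.56 with coding length in place of exon length, and 2.47 without control mouse 7. In MCU-KO mice the ratio lay between 1.94 and 3.51, also above 0 in 8 of 8 mice, with a mean of 2.71 ± 0.60 (SD, n = 8). The difference between genotypes was −0.12 (SE 0.49, p = 0.833, exact permutation test over 12870 splits, two-sided), and it turned to 0.24 without control mouse 7 and to 0.020 without control mouse 2.

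The transcripts of Rhot2 and Rhot1 did not differ per kb of exon beyond the spread between mice. Their ratio rests on the uncertain counts of Rhot2, whose exons overlap those of Gm20683. In control mice the log2 ratio lay between −0.76 and 0.69 and was above 0 in 5 of 8 mice, with a mean of 0.18 ± 0.55 (SD, n = 8, p = 0.383, exact sign-flip permutation test). With coding length in place of exon length the sign turned, to a mean of −0.38 (p = 0.125, exact sign-flip permutation test). In MCU-KO mice the ratio lay between −0.47 and 2.34, with a mean of 0.61 ± 0.89 (SD, n = 8), and its highest value was that of MCU-KO mouse 8, in which Rhot1 was lowest. The difference between genotypes was 0.44 (SE 0.37, p = 0.265, exact permutation test), and it was 0.19 without MCU-KO mouse 8.

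The log2 ratio of Trak2 to Trak1 lay between −1.27 and 0.54 in control mice, above 0 in 3 of 8, with a mean of −0.38 ± 0.64 (SD, n = 8, p = 0.188, exact sign-flip permutation test, 0.281 adjusted over the 3 pairs). With coding length in place of exon length the mean was −1.16, and the adjusted p of the same exact test was 0.0117. In MCU-KO mice the ratio lay between −0.67 and 1.05, above 0 in 6 of 8, with a mean of 0.22 ± 0.55 (SD, n = 8). The difference between genotypes of 0.59 (SE 0.30), in which the lengths cancel, did not pass the threshold (p = 0.0690, exact permutation test, two-sided, 0.207 adjusted over the 3 pairs). Without control mouse 5 or MCU-KO mouse 8 the difference was 0.72 in both cases, with p = 0.0277 and p = 0.0286 in the same exact permutation test (0.0830 and 0.0858 adjusted), and without control mouse 6 it was 0.46 (p = 0.133, exact permutation test).

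**Figure D4:**
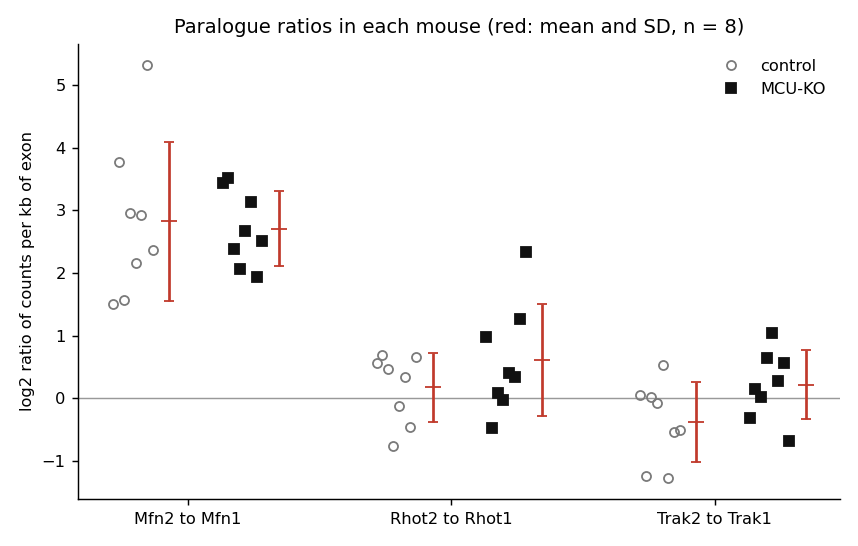
Log2 ratio of counts per kb of exon within each of the 3 pairs of paralogues, in control mice (open circles) and MCU-KO mice (filled squares), with the mean and SD in red. The ratio of Mfn2 to Mfn1 is above 0 in all mice, and the ratios of the other pairs lie on both sides of 0 in both genotypes.

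Correlations among the 10 genes went both ways. After the mean of each genotype was taken off the log2 CPM values, the Pearson correlation over the 16 mice had a median of 0.028 over the 45 pairs of these genes, beside −0.0021 over all pairs of the 8936 genes with at least 10 counts in every mouse. These correlations are descriptions, and the points of all pairs share the libraries. The highest were 0.54 between Mfn1 and Trak2 and 0.50 between Fis1 and Rhot2. At the low end, −0.38 was reached by Mfn1 with Mfn2, Opa1 with Trak1 and Opa1 with Mff. A correlation over 0.5 was found in 4.44% of the pairs of the 10 genes and in 3.58% of all pairs.

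Beyond the 10 genes, 4 lists of further factors of fusion, fission, axonal transport and cristae organization were read, with 73 genes listed and 70 tested. Some listed genes, such as Kif1a and Dnm2, are better known for other roles. Of these 70, 0 had an adjusted p under 0.05 in edgeR, DESeq2 or limma-voom. An unadjusted p under 0.05 in edgeR was found for 6 of them (8.57%), beside 4.41% of all genes. Of these 6, 1 was higher in MCU-KO (2.25% of all genes were) and 5 were lower (2.16% of all genes were). The lists were chosen with earlier results of these data known, and no test was made of these shares. For 59 of the 70 the 95% interval stayed between −1 and 1.

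In the fusion list, 16 of 16 genes were tested, with a median log2 fold change of −0.010, and 8 were fitted higher and 8 lower. Yme1l1, an inner membrane protease that cleaves OPA1, was the 1 gene of this list at an unadjusted p under 0.05. It had from 253 to 879 normalized counts in control mice (median 646) and from 570.2 to 1313 in MCU-KO mice (median 906), a log2 fold change of 0.52 (SE 0.24), and its adjusted p in edgeR was 1.00. The genotypes overlapped. Mul1, an outer membrane ubiquitin ligase that acts on mitofusins, had a log2 fold change of −0.26 (SE 0.14).

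In the fission list, 16 of 17 genes were tested (Mtfr2 had too few counts), with a median log2 fold change of 0.041. Mtfp1, a protein of the inner membrane linked to fission, had the smallest p of all 70 genes. It had from 1222 to 2412 normalized counts in control mice (median 2017) and from 933 to 1656 in MCU-KO mice (median 1379), a log2 fold change of −0.48 (SE 0.15, 95% interval −0.80 to −0.16). Its adjusted p was 0.700 in edgeR and 0.430 in DESeq2. Dnm2, a dynamin best known from endocytosis, was low and variable, with 309 ± 159 and 516 ± 325 normalized counts (SD, n = 8 each) and a 95% interval from −0.16 to 1.63.

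In the axonal transport list, 29 of 31 genes were tested (Disc1 and Myo19 had too few counts), with a median log2 fold change of −0.051, and 19 were fitted lower in MCU-KO and 10 higher, where 49.6% of all genes were fitted lower. At an unadjusted p under 0.05, 4 were lower and 0 higher, beside 2.16% and 2.25% of all genes. Kif1a, a kinesin of synaptic vesicle precursors, had from 16826 to 25402 normalized counts in control mice (median 21602) and from 14166 to 22740.5 in MCU-KO mice (median 17425). Its log2 fold change was −0.28 (SE 0.096), with an adjusted p of 0.845 in edgeR and 0.360 in DESeq2. Dync1i1, an intermediate chain of cytoplasmic dynein, had from 4248 to 6702 normalized counts in control mice (median 5016) and from 3358 to 5047 in MCU-KO mice (median 4376), with −0.30 as its log2 fold change (SE 0.11) and an adjusted p of 0.892 in edgeR. The other 2, named after their values were seen, were Actr1a, a subunit of dynactin, at −0.28, and Armcx2 at −0.40. None of the 4 was called after adjustment, and in each of them the genotypes overlapped.

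In the cristae list, 9 of 9 genes were tested, with a median log2 fold change of −0.049, and 0 had an unadjusted p under 0.05. Immt, which encodes the core MICOS subunit, had a log2 fold change of 0.25 (95% interval −0.13 to 0.62), and Micos13 (2410015M20Rik in the annotation) one of −0.13 (−0.32 to 0.056).

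**Figure D5:**
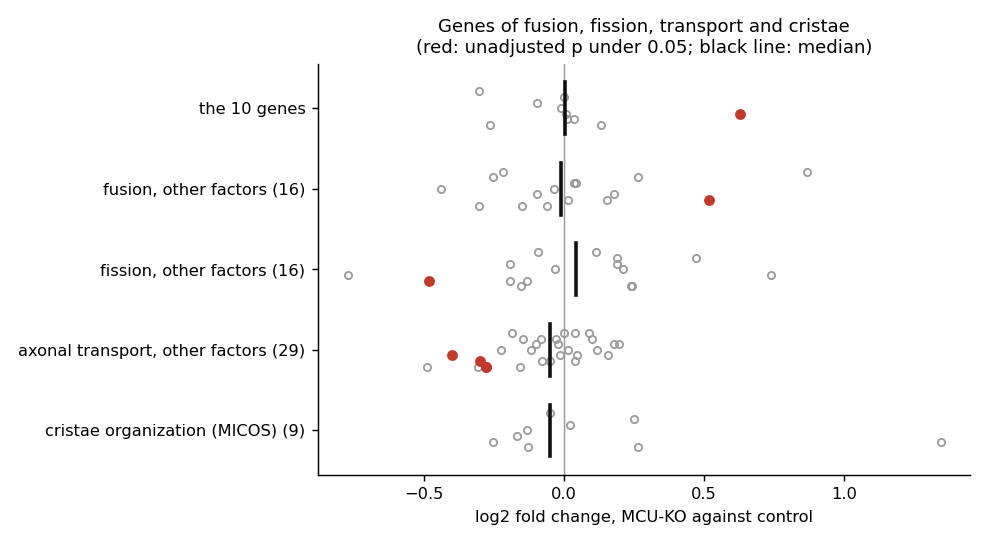
Log2 fold change, MCU-KO against control, of each tested gene of the 10 described here and of the 4 lists, with the median as a black line and genes at an unadjusted p under 0.05 in red. The medians lie between −0.051 and 0.041, and 1 of the 10 genes (Trak2) and 6 of the 70 listed genes are red.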

How the data were processed

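The authors trimmed the reads with cutadapt (the labels name Trim Galore), used STAR for alignment to mm10 and HTSeq for counting per Ensembl gene, and deposited raw counts. Tool versions, read length, strandedness and the Ensembl release were not given in the sources used here. Symbols, positions and exon lengths came from GENCODE M21 (GRCm38, the same assembly as mm10), in which 24991 of 25006 identifiers matched (4 listed names under an older symbol). Genotypes were compared with edgeR 4.0.16 in R 4.3.3 (filterByExpr, TMM, glmQLFit, glmQLFTest), and p values of the 12390 genes tested were adjusted by Benjamini-Hochberg (called under 0.05). Standard errors came from the coefficient and the F statistic. DESeq2 1.42.0 and limma 3.58.1 were alternatives, besides other normalizations and filters, a block for the mouse number and the omission of each mouse. The study also used DESeq2, with no version given. No values of 2 mice of a genotype agreed within sampling noise (chi-square per degree of freedom of at least 87.1). Permutation tests used Python 3.11.15. Reads that match several places cannot be told apart in the counts. All tests were tested on simulated data. Genes named are the 10 genes, Mcu, from each list up to 3 called genes and the 2 with the smallest p, plus for each of the 10 genes the gene most correlated with it. Actr1a, Armcx2 and the genes that overlap or share sequence with the 10 genes fall outside this rule. The 10 genes and the lists were chosen with earlier results of these data known. The sequence comparison of Mfn1 with Mfn2 is not reported here.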

Additional observations from a re-analysis of the deposited data

Results flagged for a closer look

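In 4 of 60 groups of 8 mice, 1 mouse lay apart from the others by Dixon's criterion at 95%, where chance gives about 1 in 20, or 3. The total of 14129527 counts in MCU-KO mouse 8 was the lowest. Rhot1 was lowest in the same mouse, at 276 normalized counts, whereas the other 7 MCU-KO mice had at least 827. Mff was highest in MCU-KO mouse 7, at 14720.1 normalized counts, and without this mouse its log2 fold change was −0.11 (unadjusted p = 0.339 in edgeR). Mtfp1 was lowest in MCU-KO mouse 5, at 933 normalized counts, and its log2 fold change without any 1 mouse lay between −0.55 and −0.41.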

How the results depend on the processing

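None of the 10 genes had an adjusted p under 0.05 in any of the 23 alternatives to the edgeR fit, and none of the genes in the lists did. The number of genes called over the whole table was 22, between 18 and 24 without any 1 mouse, 50 with DESeq2 and 14 with the replicate block. Same-numbered mice are different animals, and the correlation of their deviations lay between −0.071 and 0.057, so the block was read as an arbitrary pairing. The block changed no call of the 10 genes, and the log2 fold change of Trak2 was 0.63 with it (unadjusted p = 0.0451 in edgeR). The log2 fold change of Mff turned to −0.0021 with the replicate block and to −0.039 with limma-voom. With limma-voom that of Mfn1 was 0.27 (unadjusted p = 0.471 in limma-voom), beside 0.0083 in the main edgeR fit. Without 1 mouse at a time, the log2 fold changes that changed sign ran from −0.18 to 0.23 for Mfn1, −0.043 to 0.13 for Mfn2, −0.062 to 0.032 for Dnm1l, −0.11 to 0.050 for Mff and −0.040 to 0.11 for Trak1, and that of Trak2 ran from 0.54 to 0.72. The genotype difference of the Mfn2 to Mfn1 ratio ran from −0.30 to 0.24 in the same way. With coding length in place of exon length, the control ratio of Rhot2 to Rhot1 turned to −0.38 and that of Trak2 to Trak1 passed the threshold at −1.16. The replicate block left the 3 genotype differences of ratios on the same side of the threshold. The 95% confidence intervals of Opa1, Mfn1, Rhot1, Rhot2 and Trak2 reach beyond a 1.5-fold change.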

Other observations

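For each of the 10 genes, the gene with the most similar pattern over the 16 mice was looked up among the 8936 genes with at least 10 counts in every mouse, by Pearson's r of log2 CPM after the genotype means were taken off. These were Sema3f for Opa1 (0.86), Usp9x for Mfn1 (0.84), Rab3a for Mfn2 (0.88), Robo2 for Dnm1l (0.88), Tmed9 for Fis1 (0.81), Ilf2 for Mff (0.87), 2810004N23Rik for Rhot1 (0.81), Paxip1 for Rhot2 (0.87), 2500004C02Rik for Trak1 (0.86) and Fbxl5 for Trak2 (0.85). Each is the highest value among all those genes, no test was made, and none of the 10 genes was the most similar gene of another.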
